A study of Homo sapiens with 4 samples.

Results

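IGF2BP1, IGF2BP2, IGF2BP3, HMGA1 and HMGA2 are oncofetal genes, active in the embryo and switched on again in many tumours. They are largely silent in most adult tissues, HMGA1 and IGF2BP2 less so. They were taken by gene symbol from an RNA sequencing table of BE(2)C cells, a human neuroblastoma line, into which a MYCN open reading frame had been introduced, and they make up 5 of its 19734 gene rows. The sources used here do not give the promoter of that MYCN construct or say whether the line is 1 clone. Cells received an siRNA against MYCN (siMYCN) or a control siRNA (siCon), together with a let-7a mimic or a control mimic (miRCon), and polyA RNA was collected 48 hours after transfection. The 4 groups were siMYCN with let-7a, siMYCN with miRCon, siCon with let-7a and siCon with miRCon, and all 4 carried the MYCN construct. Each group was 1 library, so a difference between a pair of libraries has no replicate check.

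Values were deposited as natural logs, and after back-transformation they are called TPM-like here, a level per length of transcript whose sum was between 855811 and 862049 in each library. Read depth is unknown, since such values keep none, and no counting error can be given. Between 14786 and 15290 gene rows were above 0 per library, and mitochondrial transcripts took 29.3% and 28.4% of the total in the siMYCN libraries against 32.1% and 31.7% in the siCon libraries. The cell type was checked against markers. All 10 noradrenergic neuroblastoma markers had a mean of at least 5, and their summed level was between 2379 and 3247. None of 5 blood markers and 1 of 5 epithelial markers reached that mean, with HBB, CDH1 and KRT5 at 0 in every library. Of 7 fibroblast markers, 5 reached it, led by THY1 and LUM, while COL1A2 was between 0 and 0.185. Of 7 mesenchymal-like neuroblastoma markers, 1 reached it, VIM at a mean of 177.0 TPM-like.

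IGF2BP proteins bind mRNA in the cytoplasm and control where it is kept, how long it lasts and how it is translated. HMGA proteins bind the minor groove of AT-rich DNA through AT-hook motifs and bend chromatin for other factors. let-7 miRNAs accumulate as cells differentiate and repress mRNAs that carry a match to the miRNA seed in the 3′ UTR, and HMGA2 and the IGF2BP genes are textbook let-7 targets. LIN28B, which blocks let-7 maturation, is often active in neuroblastoma, and the MYCN mRNA is itself a let-7 target. The pairs of libraries that differ in the mimic show how the 5 mRNAs stood when let-7a was supplied, and those that differ in the siRNA show how they stood when MYCN was lowered.

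The mature let-7a sequence shows which bases are matched, with the seed (bases 2 to 8 from the 5′ end) in capitals. RefSeq places it at 3 loci of GRCh38.p14, chr9:94175962-94175983 (+), chr11:122146568-122146589 (-) and chr22:46112752-46112773 (+).
let-7a: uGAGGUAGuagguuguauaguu

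The 3′ UTRs in GENCODE 29 (GRCh38) were searched on the mRNA strand for CTACCTCA (8mer), CTACCTC (7mer-m8), TACCTCA (7mer-A1) and TACCTC (6mer), each match counted once in its longest class. Of 19132 genes with an annotated 3′ UTR, 17.0% held an 8mer or 7mer match in any of their annotated 3′ UTRs, 3.26% held 2 or more and 0.732% held 3 or more. A match is a description of letters and is not a measured site of binding. Every member held at least 1 match. The windows printed for each gene are the 22 bases that end opposite base 1 of the miRNA, with the matched bases in capitals. Positions count bases after the stop codon, to the first base of the 6-base core.

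IGF2BP1 (ENSG00000159217.9, chr17:48997412-49055650, +) had 5 such matches in its 3′ UTR of 6206 bases, carried by 1 of its 2 coding transcripts. Only 13 genes (0.0679%) had as many. Among 900 other genes with a longest 3′ UTR of 0.8 to 1.25 times that length, 6 (0.667%) had as many and 48.8% had any. The windows are shown because this was the member with the lowest let-7a value among those tested. They lie at chr17:49051062-49051083, chr17:49051080-49051101, chr17:49053699-49053720, chr17:49054353-49054374 and chr17:49054998-49055019.
IGF2BP1 8mer at base 1633: gtgtgcgaagtaaaCTACCTCA
IGF2BP1 7mer-A1 at base 1651: ctcaaggtatgaagtTACCTCA
IGF2BP1 8mer at base 4270: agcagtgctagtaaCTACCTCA
IGF2BP1 8mer at base 4924: tataaatggattaaCTACCTCA
IGF2BP1 7mer-m8 at base 5569: cacttttgttttatCTACCTCt

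The other IGF2BP genes held fewer. IGF2BP2 (ENSG00000073792.15, chr3:185643739-185825056, -) had 2 matches in a 3′ UTR of 1792 bases, both present in 3 of its 4 coding transcripts. IGF2BP3 (ENSG00000136231.13, chr7:23310209-23470467, -) had 1 match in 2153 bases, present in both coding transcripts. The IGF2BP windows therefore differ in number more than in class, since each gene had at least 1 8mer. Those of IGF2BP2 lie at chr3:185644220-185644241 and chr3:185644205-185644226, and that of IGF2BP3 at chr7:23311795-23311816, all on the minus strand.
IGF2BP2 8mer at base 1305: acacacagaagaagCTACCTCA
IGF2BP2 7mer-A1 at base 1320: tacctcaggtgttttTACCTCA
IGF2BP3 8mer at base 561: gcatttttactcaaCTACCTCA

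The HMGA genes stood at opposite ends of the count. HMGA2 (ENSG00000149948.13, chr12:65824131-65966295, +) had 7 matches, all in the 3003-base 3′ UTR of 1 of its 7 coding transcripts. Its longest annotated 3′ UTR, of 7421 bases in another transcript, ends elsewhere and held none, so the count depends on the transcript, and the gene-level values do not say which transcript was present. Only 2 genes, HMGA2 included, held as many over all annotated 3′ UTRs. HMGA1 (ENSG00000137309.19, chr6:34236873-34246231, +) had 1 match in 1347 bases, present in all 5 coding transcripts. The HMGA2 windows lie at chr12:65963299-65963320, chr12:65964384-65964405, chr12:65964534-65964555, chr12:65964896-65964917, chr12:65964946-65964967, chr12:65965799-65965820 and chr12:65965818-65965839, and that of HMGA1 at chr6:34245830-34245851, all on the plus strand.
HMGA2 8mer at base 22: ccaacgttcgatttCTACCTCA
HMGA2 7mer-A1 at base 1107: gacctgaataccactTACCTCA
HMGA2 7mer-m8 at base 1257: cccactactcaataCTACCTCt
HMGA2 7mer-A1 at base 1619: taccctccaagtctgTACCTCA
HMGA2 7mer-m8 at base 1669: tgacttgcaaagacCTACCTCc
HMGA2 7mer-m8 at base 2522: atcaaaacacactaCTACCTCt
HMGA2 7mer-A1 at base 2541: tcttaagtcccagtaTACCTCA
HMGA1 7mer-m8 at base 961: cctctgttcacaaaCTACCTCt

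Pairing energies of the whole miRNA with each 22-base window, computed with RNAduplex, were between -20.4 kcal/mol for the HMGA2 match at base 2522 and -10.5 kcal/mol for the IGF2BP2 match at base 1320. The IGF2BP1 8mers were at -17.9, -16.1 and -14.7 kcal/mol. The IGF2BP3 8mer was at -13.9 kcal/mol and the HMGA1 match at -16.2 kcal/mol. A 7mer in HMGA1 was thus computed to pair more strongly than the 8mer in IGF2BP3.

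**Figure D1:**
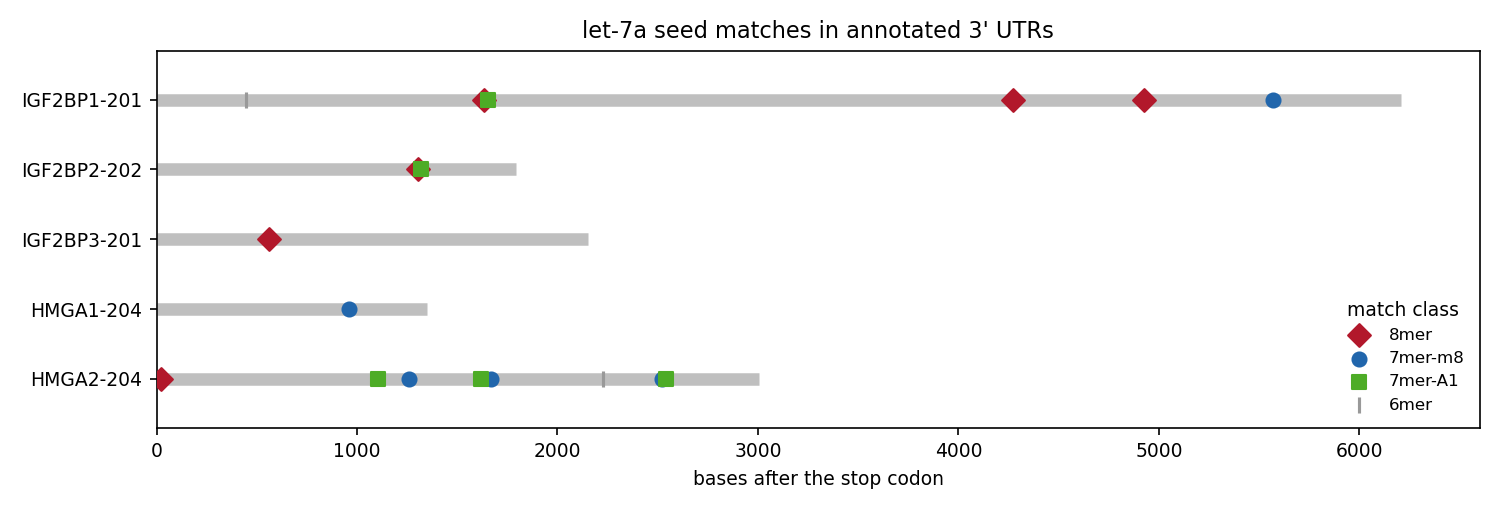
Positions of let-7a seed matches along the 3′ UTR transcripts of the 5 genes, in bases after the stop codon, with match classes as marked in the legend. IGF2BP1 carries 5 8mer and 7mer matches over 6206 bases, and HMGA2 carries 7 in a 3′ UTR of 3003 bases.

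The 5 genes spanned levels from abundant to near 0, and the values per length allow them to be set in order. HMGA1, the broadly expressed member of its family, had a mean of 269.3 TPM-like over the 4 libraries, and 1.67% of gene rows were higher. IGF2BP3 averaged 71.2 and IGF2BP1 64.6 TPM-like, with 9.24% and 10.4% of gene rows higher. These 2 neighbours in the order were within the spread of the libraries, since IGF2BP1 exceeded IGF2BP3 in 1 library of 4. HMGA2, the embryonic member of its family, averaged 1.32 TPM-like, and IGF2BP2 0.0749 TPM-like. The order of HMGA1, the IGF2BP1 and IGF2BP3 pair, HMGA2 and IGF2BP2 was the same in every library, with no overlap between those steps.

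**Figure D2:**
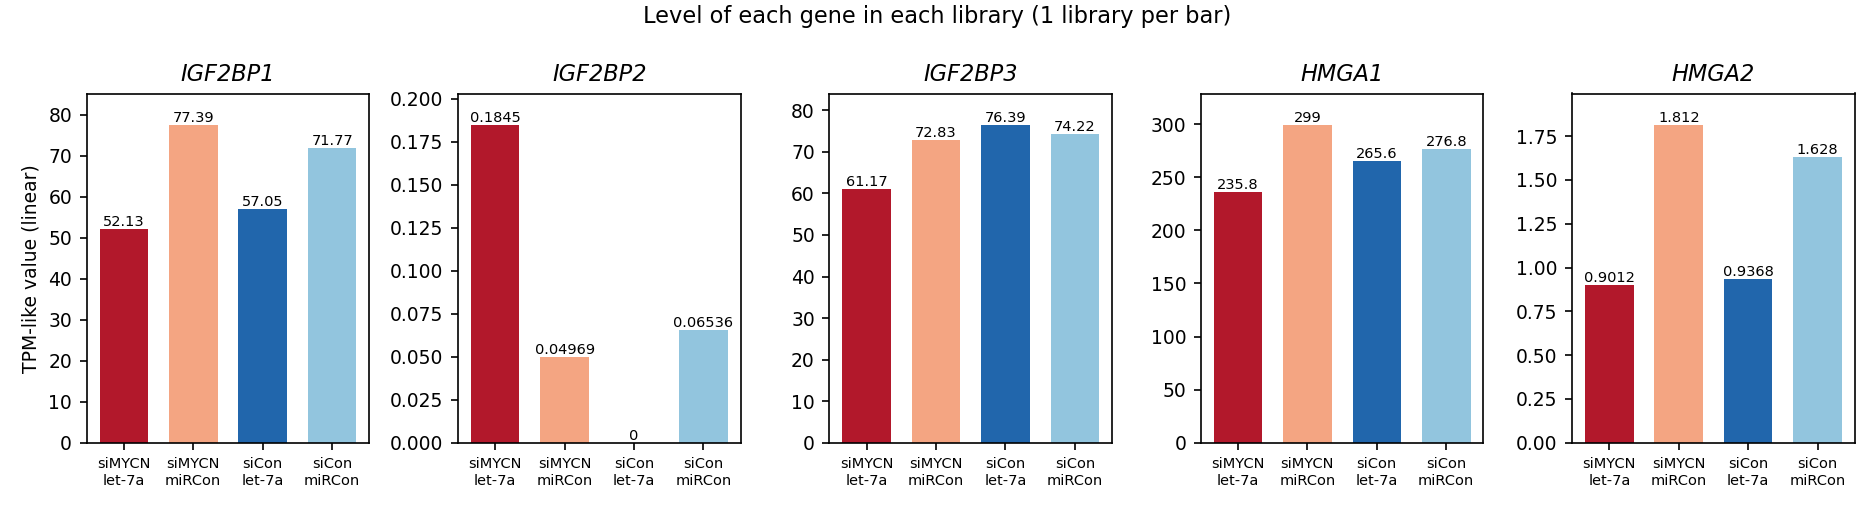
TPM-like level of each gene (linear axis from 0, a separate scale per gene) in siMYCN with let-7a, siMYCN with miRCon, siCon with let-7a and siCon with miRCon, 1 library per bar and no error bar. IGF2BP1, HMGA1 and HMGA2 were lower in both let-7a libraries than in both miRCon libraries. So were 16.2% of tested genes and 12.7% of gene rows with a mean near that of HMGA2. IGF2BP2 was under 0.2 in all 4.

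The let-7a comparison was made on log2(value + 1) with limma, fitting the mimic and the siRNA as additive effects across 9324 genes with a mean of at least 5. This fit takes its error from how far each gene departs from additivity, shared across genes, so a p-value holds only if the effects are additive, and it measures spread among these libraries only. IGF2BP1, IGF2BP3 and HMGA1 were tested, while IGF2BP2 and HMGA2 were under the filter. For the let-7a mimic, 0 of the 3 tested members and 0 of 9324 genes (0.0%) passed a Benjamini-Hochberg adjusted p of 0.05 in limma. At an unadjusted p under 0.05, 697 genes passed (7.48%), and 439 of them were lower (4.71%). Of the 3 members, 1 (IGF2BP1) was among those lower. No tested member was at least 1.5-fold lower in both siRNA states, a size that 0.257% of genes reached, and none was as much higher, as 0.204% of genes were.

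IGF2BP1, the family member best known as an mRNA-stabilising oncofetal protein in neuroblastoma, was at 52.1 TPM-like in siMYCN with let-7a against 77.4 in siMYCN with miRCon. In the siCon cells it was at 57.1 TPM-like with let-7a against 71.8 with miRCon. Both let-7a libraries lay below both miRCon libraries, as they did for 16.2% of tested genes. The level with let-7a was 32.6% lower than with miRCon in siMYCN cells, a log2 difference of -0.56, and 20.5% lower in siCon cells, a log2 difference of -0.33. Over both states the limma estimate was -0.44 ± 0.10 (log2, SE), with an unadjusted p of 0.00643 and a Benjamini-Hochberg adjusted p of 0.663. That estimate was the 246th lowest of 9324, so 2.64% of genes were as low. The summed fibroblast markers were lower in the same libraries, though not every marker was. All 5 that were tested had estimates below 0, as did 57.7% of all tested genes, with a median of -0.092 against -0.031 over all of them. The 7 summed to 298.1 and 305.3 TPM-like with let-7a against 352.4 and 336.4 with miRCon, in each case with siMYCN before siCon. LUM was at 83.9 and 91.2 TPM-like with let-7a against 123.3 and 116.5 with miRCon, in the same order. LUM and THY1 were lower with let-7a in both siRNA states. DCN was higher with let-7a in siMYCN cells, at 35.1 against 28.4 TPM-like, and COL1A1 and COL3A1 were slightly higher in siCon cells. The part of these markers in the IGF2BP1 difference was not tested.

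IGF2BP3, a near relative that binds many of the same mRNAs, was at 61.2 TPM-like in siMYCN with let-7a against 72.8 in siMYCN with miRCon. In siCon cells it was at 76.4 TPM-like with let-7a against 74.2 with miRCon. Only the library that received both agents stood low, and the let-7a and miRCon libraries overlapped. The log2 difference was -0.25 in siMYCN cells and 0.041 in siCon cells, and the limma estimate was -0.10 ± 0.11 (log2, SE), with a Benjamini-Hochberg adjusted p of 0.819. Among the tested genes, 32.4% were as low, and 44.0% had let-7a differences of opposite sign, as IGF2BP3 did. IGF2BP2, the member that persists in some adult tissues, was at 0.185 TPM-like in siMYCN with let-7a, 0.0497 in siMYCN with miRCon, listed at 0 in siCon with let-7a and 0.0654 in siCon with miRCon. At this level no difference is read from it.

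HMGA2, the let-7 target with the longest record in experiments, was at 0.901 TPM-like in siMYCN with let-7a against 1.81 in siMYCN with miRCon. In siCon cells it was at 0.937 TPM-like with let-7a against 1.63 with miRCon. Both let-7a libraries again lay below both miRCon libraries. The level was 50.3% lower with let-7a in siMYCN cells and 42.4% lower in siCon cells, the lowest ratios of let-7a to miRCon among the 4 members above 0 in every library. On the log2(value + 1) scale, which understates changes of low genes, the differences were -0.56 and -0.44. Without the filter, limma gave -0.50 ± 0.18 (log2, SE), with a Benjamini-Hochberg adjusted p of 0.808. At such a level the spread of genes is wide. Of 1068 gene rows with a mean within 1.5-fold of it, 12.9% were as low in siMYCN cells, 15.4% as low in siCon cells and 34 rows (3.18%) as low in both, while 12.7% had both let-7a libraries below both miRCon libraries.

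HMGA1, an AT-hook protein expressed in most dividing cells, was at 235.8 TPM-like in siMYCN with let-7a against 299.0 in siMYCN with miRCon. In siCon cells it was at 265.6 TPM-like with let-7a against 276.8 with miRCon. Both let-7a libraries lay below both miRCon libraries, as they did for 16.2% of tested genes, though the pair in siCon cells lay close together. The level with let-7a was 21.1% lower in siMYCN cells and 4.03% lower in siCon cells. The limma estimate was -0.20 ± 0.087 (log2, SE), with a Benjamini-Hochberg adjusted p of 0.665, and 16.4% of genes were as low. IGF2BP1 and HMGA1 were below 0 in both siRNA states, as were 33.5% of tested genes.

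**Figure D3:**
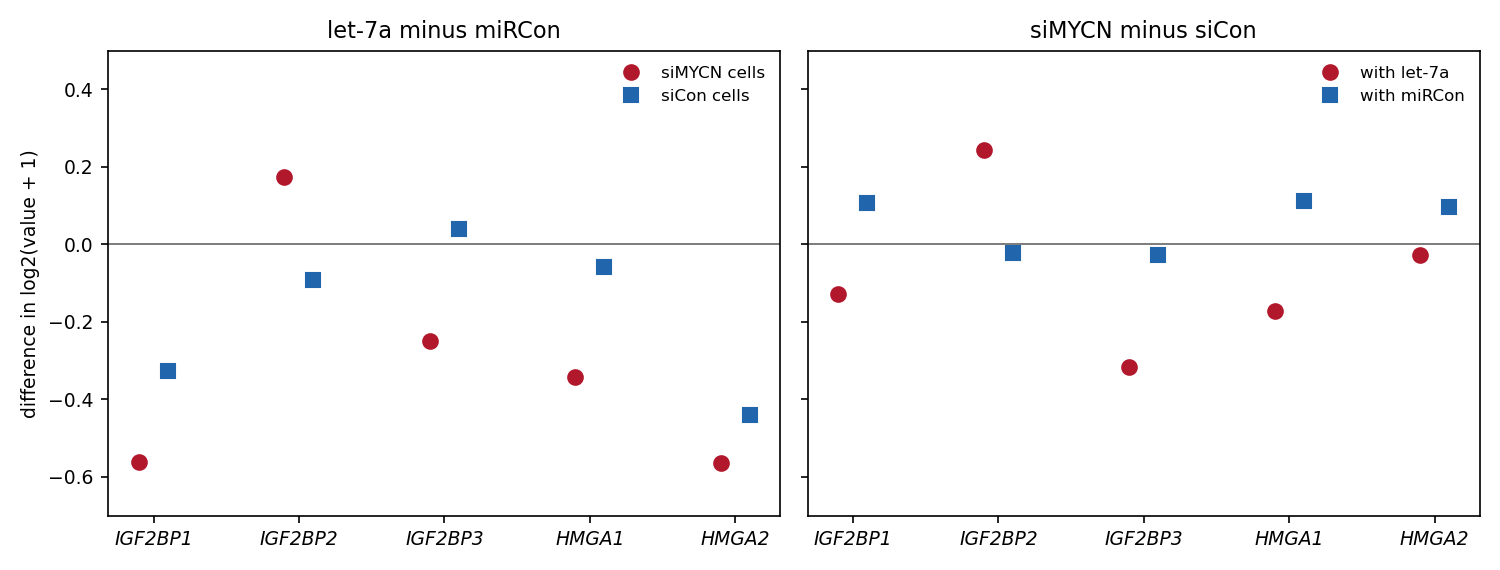
log2(value + 1) differences of each gene between single libraries, for let-7a minus miRCon in siMYCN and siCon cells and for siMYCN minus siCon with let-7a and with miRCon, with no error bar because each point is 1 pair. IGF2BP1 lies at -0.56 and -0.33 for let-7a, and HMGA2 at -0.56 and -0.44, while the siMYCN differences of every gene are smaller than 0.4 in size.

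The let-7a estimates of all genes were set beside the number of 8mer and 7mer matches in their annotated 3′ UTRs. Over 8916 tested genes with a 3′ UTR, the median log2 estimate was -0.11 for the 90 genes with 3 or more matches, -0.079 for 301 genes with 2, -0.060 for 1453 genes with 1 and -0.025 for 7072 genes with none. The share of genes below 0 was 68.9%, 67.4%, 63.3% and 56.3% in the same order. In siCon cells alone the medians kept that order, but in siMYCN cells they were -0.095 for 3 or more matches and -0.106 for 2. The length of the 3′ UTR was not taken into account. IGF2BP1 was the 10th lowest of the 90 genes with 3 or more matches, which ran from -1.09 to 0.79. IGF2BP3 and HMGA1, with 1 match each, lay within the 5th to 95th percentile of their class, below its median. Of 8 tested genes with 5 or more matches, a cutoff set after the values were seen, 7 were below 0 in both siRNA states. The share below 0 in both was 53.3% for genes with 3 or more matches and 33.5% for all tested genes. Among the 8, the lowest estimates were LIN28B at -0.89, ARID3B at -0.63, FIGN at -0.57 and IGF2BP1 at -0.44. CLCN5, at 0.19, was the gene above 0. LIN28B was at 55.5 and 96.5 TPM-like with let-7a against 118.5 and 157.2 with miRCon, in siMYCN and siCon cells in that order.

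**Figure D4:**
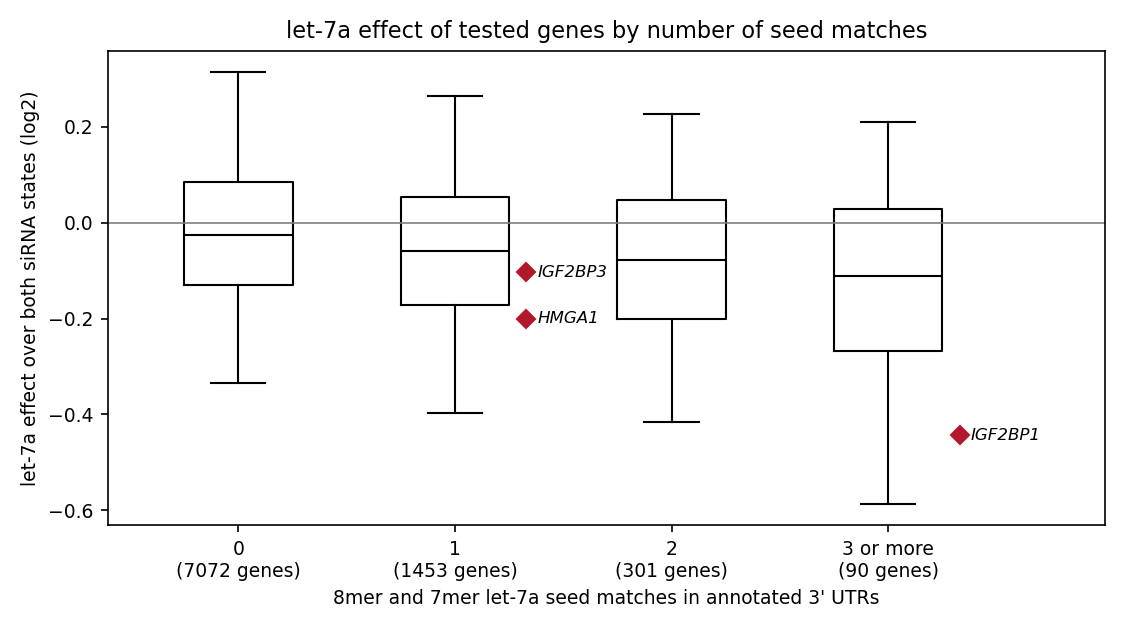
limma let-7a estimate (log2, both siRNA states) of tested genes by the number of 8mer and 7mer seed matches in their annotated 3′ UTRs. The line is at the median, boxes run from the 25th to the 75th percentile and whiskers end at the 5th and 95th percentiles. Boxes show the spread over genes, which are not replicates. Diamonds mark IGF2BP1 at -0.44, HMGA1 at -0.20 and IGF2BP3 at -0.10.

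The siMYCN comparison asks how the genes stood when MYCN, a transcription factor amplified in this line, was lowered. MYCN itself was at 1197 TPM-like in siMYCN with let-7a against 1433 in siCon with let-7a, 16.4% lower. With miRCon it was at 1238 TPM-like in siMYCN against 1449 in siCon, 14.5% lower, and limma gave an adjusted p (Benjamini-Hochberg) of 0.0584 for the additive effect. The siRNA libraries were thus separated by a modest difference in MYCN mRNA, and the construct and the native gene could not be told apart. Across all genes, limma called 320 at a Benjamini-Hochberg adjusted p of 0.05 (3.43%), 193 higher and 127 lower in siMYCN. The split turned to 343 higher and 408 lower with median-ratio scaling, and to 195 and 249 when scaled without mitochondrial transcripts. None of the 3 tested members was among them, and none was among the 26.4% with an unadjusted p under 0.05 (9.4% lower). A difference of at least 1.5-fold with both mimics was reached by 0 members, against 1.61% of tested genes that were lower and 2.85% that were higher.

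For IGF2BP1 the siMYCN libraries lay on both sides of their siCon partners. It was at 52.1 TPM-like in siMYCN against 57.1 in siCon with let-7a, 8.62% lower, and at 77.4 in siMYCN against 71.8 in siCon with miRCon, 7.83% higher. The limma estimate was -0.010 ± 0.10 (log2, SE), with a Benjamini-Hochberg adjusted p of 0.962, and 97.0% of genes were as far from 0. HMGA1 was 11.2% lower with let-7a and 8.05% higher with miRCon, with an estimate of -0.030 ± 0.087 (log2, SE) and an adjusted p of 0.857 in limma. HMGA2 was 3.81% lower with let-7a and 11.3% higher with miRCon. With median-ratio scaling, the miRCon differences of IGF2BP1 and HMGA1 were 0.037 and 0.041 (log2), against 0.11 for each as deposited. All 3 genes thus stood lower with siMYCN where let-7a was present and higher where it was not. Opposite signs in the siMYCN pairs were seen in 29.4% of tested genes, and the difference between the pairs has no test.

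IGF2BP3 was the tested member farthest from 0. It was at 61.2 TPM-like in siMYCN against 76.4 in siCon with let-7a, 19.9% lower, and at 72.8 in siMYCN against 74.2 in siCon with miRCon, 1.87% lower. Both siMYCN libraries lay below both siCon libraries, as they did for 21.1% of tested genes, and 27.4% were below 0 with both mimics. Most of that distance came from the let-7a pair. The limma estimate was -0.17 ± 0.11 (log2, SE), with a Benjamini-Hochberg adjusted p of 0.358, and 55.1% of genes were as far from 0. The median siMYCN estimate of all tested genes was 0.056.

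Promoters were searched for CACGTG, the E-box that MYC family proteins bind, which reads the same on both strands. RefSeq (GRCh38.p14) gave windows from 250 bases before to 50 bases after a start for IGF2BP2, IGF2BP3 and HMGA1, 3 of the 5 genes. IGF2BP3 held 2 copies, at -174 and -146 from its start, while the 2 windows each of IGF2BP2 and HMGA1 held 0. Of 35116 windows of the same length in the table, 7.26% held at least 1 copy and 0.664% held 2 or more. A match is no evidence of binding, and other E-box variants were not searched. The IGF2BP3 stretch with both copies, which are in capitals, runs from -184 to -135 at chr7:23470626-23470675 on the minus strand.
IGF2BP3 promoter: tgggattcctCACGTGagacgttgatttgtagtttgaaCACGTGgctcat

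The library with both agents was the lowest of the 4 for each member except IGF2BP2. The share of all tested genes with that library lowest was not taken, so this order is a description only. Against siCon with miRCon, siMYCN with let-7a was lower by 44.6% for HMGA2, 27.4% for IGF2BP1, 17.6% for IGF2BP3 and 14.8% for HMGA1. On the log2(value + 1) scale these differences were -0.47, -0.45, -0.27 and -0.23. Shares of tested genes as low were 9.77% for IGF2BP1, 19.6% for IGF2BP3 and 22.9% for HMGA1. The let-7a difference in siMYCN cells minus that in siCon cells was -0.29 for IGF2BP3, -0.28 for HMGA1, -0.23 for IGF2BP1 and -0.12 for HMGA2 in log2. Sizes as large were common, in 33.0%, 34.0% and 41.8% of tested genes for IGF2BP3, HMGA1 and IGF2BP1. With 1 library per group, none of these values has a test.

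The balance within each family differed between the mimics in these single libraries, and the difference was not tested. IGF2BP1 made up 45.9% of the summed IGF2BP level in siMYCN with let-7a against 51.5% in siMYCN with miRCon, and 42.8% in siCon with let-7a against 49.1% in siCon with miRCon. The ratio of IGF2BP1 to IGF2BP3 was 0.852 and 0.747 with let-7a against 1.06 and 0.967 with miRCon, in siMYCN and siCon cells in that order. IGF2BP3 was therefore the higher mRNA in both let-7a libraries, and the pair was near parity with miRCon. HMGA2 made up 0.381% and 0.351% of the summed HMGA level with let-7a against 0.602% and 0.585% with miRCon. HMGA1 therefore gave nearly all HMGA mRNA in each library. The HMGA2 shares rest on levels between 0.901 and 1.81 TPM-like, where the spread of genes is wide. The summed IGF2BP level was 113.5 and 133.4 TPM-like with let-7a against 150.3 and 146.1 with miRCon.

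Genes with the profile most like each member's were found by the distance between log2(value + 1) profiles over the 4 libraries, each centred on its own mean, among 5672 genes with a mean of at least 20. Nearest to IGF2BP1 were DGCR8, a subunit of the nuclear microprocessor that cuts primary miRNAs, at a distance of 0.019, LUM at 0.020 and TROVE2 at 0.031. DGCR8 was at 21.4 and 23.6 TPM-like with let-7a against 32.0 and 29.2 with miRCon, in siMYCN and siCon cells in that order. LUM was at 83.9 and 91.2 TPM-like with let-7a against 123.3 and 116.5 with miRCon. Both were picked for their likeness to IGF2BP1, so their low level in the let-7a libraries follows from that choice. Nearest to IGF2BP3 were GNPNAT1, HIP1 and SSH2, and nearest to HMGA1 were TBC1D2B, PSMB2 and MGAT1. The members were not nearest to each other, since HMGA1 was the 197th and IGF2BP3 the 1046th nearest to IGF2BP1. With 4 libraries, many genes lie close by.

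Partners of IGF2BP proteins in mRNA granules were described as a list of 12 genes, all tested. For let-7a, 0 passed the adjusted limma test, 9 of 12 estimates were below 0, against 57.7% of all tested genes, and the median was -0.080 against -0.031 over all genes. For siMYCN, 1 of 12 rose and 0 fell, where 3.43% of all genes were called in either direction, and the median was 0.068 against 0.056 over all genes. The 1 that rose was YBX1, an mRNA-packaging protein, at 1186 TPM-like in siMYCN against 763.1 in siCon with let-7a and 1244 in siMYCN against 793.1 in siCon with miRCon. Its limma estimate was 0.64 (log2), with a Benjamini-Hochberg adjusted p of 0.0207. Over all genes, every limma call for siMYCN was lost when the filter or the trend was left out.

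Of 15 listed mRNAs known to be bound by IGF2BP proteins, 11 were tested. For let-7a, 0 passed, 7 of 11 were below 0, close to the 57.7% of all tested genes, and the median was -0.049. For siMYCN, 1 of 11 rose and 0 fell, beside 3.43% called over all genes, with a median of 0.028. FSCN1, an actin-bundling protein, was the 1 that rose, at 654.6 TPM-like in siMYCN against 517.5 in siCon with let-7a and 740.0 in siMYCN against 481.9 in siCon with miRCon, with a Benjamini-Hochberg adjusted p of 0.0487 in limma, just under the threshold. IGF2, the growth factor whose mRNA gave the family its name, was at 1456 TPM-like in siMYCN with let-7a against 2103 in siMYCN with miRCon. In siCon cells it was at 2030 TPM-like with let-7a against 2116 with miRCon, so it stood low in 1 library, the one with both agents.

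Genes linked to HMGA proteins were a list of 10, of which 9 were tested. For let-7a, 0 passed, 7 of 9 were below 0, against 57.7% of all tested genes, and the median was -0.10. For siMYCN, 0 of 9 passed, beside 3.43% called over all genes, and the median was -0.022 against 0.056 over all genes. The most abundant was TWIST1, a basic helix-loop-helix factor of embryonic mesenchyme, at 246.2 and 267.7 TPM-like with let-7a against 342.7 and 255.5 with miRCon, in siMYCN and siCon cells in that order. Its let-7a differences were -0.48 in siMYCN cells and 0.067 in siCon cells (log2), so they had opposite signs. CCNA2, a cyclin of S phase and mitosis, was at 126.4 and 155.0 TPM-like with let-7a against 153.5 and 165.9 with miRCon. E2F1, a transcription factor of S phase entry, was at 129.6 and 170.0 TPM-like with let-7a against 154.6 and 164.2 with miRCon. CCNB2, a mitotic cyclin, was between 126.9 and 132.3 TPM-like in all 4 libraries. Other chromatin HMG proteins were a list of 8 HMGB and HMGN genes, all tested. For let-7a, 0 passed, as over all genes (0.0%). Of the 8 estimates, 5 were above 0 and 3 below, where 57.7% of all tested genes were below. The median was 0.066 against -0.031 over all genes. For siMYCN, 0 of 8 passed, beside 3.43% called over all genes. HMGB1, the most abundant, was at 601.2 and 537.3 TPM-like with let-7a against 605.6 and 584.3 with miRCon, above HMGA1 in each library. HMGB2, HMGN3 and HMGN2 were next by mean level, at 368.8, 281.2 and 245.6 TPM-like over the 4 libraries.

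Other oncofetal genes were a list of 12, of which 11 were in the table, 5 were tested and 5 were under 1 TPM-like in every library. For let-7a, 0 passed, 4 of the 5 were below 0, against 57.7% of all tested genes, and the median was -0.31. For siMYCN, 0 of 5 passed, beside 3.43% called over all genes, and the median was -0.205 against 0.056 over all genes. The tested genes included IGF2 and LIN28B, given above, and DLK1, an imprinted surface protein of embryonic tissue. DLK1 was at 3628 and 3266 TPM-like with let-7a against 3990 and 2935 with miRCon, in siMYCN and siCon cells in that order, so its let-7a differences had opposite signs. PLAGL2, a zinc finger factor, was at 27.9 and 35.5 TPM-like with let-7a against 38.1 and 40.2 with miRCon.

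Reads can be shared between loci at several members. IGF2BP1 is overlapped by 5 annotated genes, 3 of them on the opposite strand and 1 a processed pseudogene on the same strand, and IGF2BP2 by 2, 1 of them on the opposite strand. IGF2BP3 is overlapped by 4 annotated genes, all on the opposite strand, of which MALSU1 reached 16.8 TPM-like. HMGA1 has 8 pseudogenes elsewhere in the annotation, and HMGA2 is overlapped by 4 genes, 3 of them on the opposite strand. The sources used here do not say whether strand was used in counting, so part of a member's value could come from such neighbours or copies.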

How the data were processed

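PolyA RNA was measured in 4 libraries, 1 in each of 4 groups taken from the sample titles. The deposited table of 19837 rows holds natural log values per gene, with the log base read from the values, and exp(x) - 1 gave TPM-like values. Per the submitters' processing notes, HISAT 0.1.6, Salmon 0.3.2 and GRCh38 were used, in roles that are not stated. The sources used here give neither the annotation nor any filter. Vector rows (11) and spike-in rows (92) were set apart, and 28 gene rows named as calendar dates were kept.

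Limma 3.58.1 (R 4.3.3) with an intensity trend was fitted to log2(value + 1) of 9324 genes with a mean of at least 5, with siRNA and mimic as additive terms, 1 residual degree of freedom and Benjamini-Hochberg adjustment over all of them. Single pairs have no test. TPM-like values keep no depth, so precision per library is unknown.

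The members and gene lists were chosen with earlier results of these data known. Named genes were the 5 members, the 3 genes most like each member with a mean of at least 20, list members called over all genes or otherwise up to 4 with the highest mean, and MYCN and LIN28B. Genes with 5 or more let-7 matches, MALSU1 and the cell type markers named were singled out after their values were seen. The settings also tried were a pseudocount of 0.1 or 5, a filter at a mean of 20 or none, median-ratio scaling, removal of mitochondrial transcripts, limma without a trend or with robust variance, and other choices of 3′ UTR. Python 3.11.15, pandas 2.3.3, NumPy 2.4.6, matplotlib 3.10.9 and ViennaRNA 2.7.2 were used with GENCODE 29.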

Additional observations from a re-analysis of the deposited data

Results flagged for a closer look

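Some members had differences of opposite sign in the pairs of the same comparison. Each value here is the let-7a difference in siMYCN cells minus that in siCon cells on the log2(value + 1) scale, which equals the siMYCN difference with let-7a minus that with miRCon. With 1 library per group, none of these differences between pairs was tested.

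For let-7a against miRCon, IGF2BP3 was lower in siMYCN cells and slightly higher in siCon cells, a gap of -0.29. IGF2BP2 was higher in siMYCN cells and lower in siCon cells, a gap of 0.27, at levels under 0.2 TPM-like where 1 library was listed at 0. Opposite signs were found for 44.0% of tested genes in this comparison.

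For siMYCN against siCon, IGF2BP1, HMGA1 and HMGA2 were lower with let-7a and higher with miRCon, with gaps of -0.23, -0.28 and -0.12. IGF2BP2 was the reverse, with the same gap of 0.27. Opposite signs were found for 29.4% of tested genes in this comparison.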

How the results depend on the processing

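Over the alternatives, 85 of 86 values that answer a comparison were unchanged by the rule for their kind. Limma estimates had to keep their direction and their side of the threshold. Differences of both agents against neither, included for the 3 tested members only, had to move by less than the limma standard error. Counts had to stay equal or within 1.5-fold. The exception was the number of let-7a 8mer and 7mer matches in HMGA2, which was 0 in the longest annotated 3′ UTR and 7 over all annotated 3′ UTRs. Limma let-7a estimates (log2) were between -0.45 and -0.41 for IGF2BP1, between -0.20 and -0.17 for HMGA1 and between -0.10 and -0.070 for IGF2BP3, with adjusted p between 0.539 and 0.896. For siMYCN they were between -0.071 and -0.0086 for IGF2BP1, between -0.092 and -0.029 for HMGA1 and between -0.23 and -0.16 for IGF2BP3, with adjusted p between 0.214 and 0.972. Of the other values between libraries, 16 moved, all of IGF2BP2 or HMGA2 under another pseudocount. They included the difference of both agents against neither. For HMGA2 it was -0.467 with a pseudocount of 1, -0.787 with 0.1 and -0.167 with 5. For IGF2BP2 it was 0.153, 0.783 and 0.0335 in the same order. The siMYCN count over all genes, 193 higher and 127 lower, was 0 and 0 without the filter (1761 and 1030 at an unadjusted p under 0.05) or without the trend (1434 and 787), and 343 and 408 with median-ratio scaling. No paired analysis was possible because groups of 1 library share no replicate numbers, and the additive fit already compares the mimics within each siRNA state. Unknown depth limits what can be said of IGF2BP2 and HMGA2.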

Other observations

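In 3 of the 5 genes, a pair of let-7a 8mer or 7mer matches stood close together in 1 3′ UTR. The closest starts were 18 bases apart in IGF2BP1, 15 bases apart in IGF2BP2 and 19 bases apart in HMGA2. Of 19132 genes with a 3′ UTR, 41 (0.214%) had a pair within 50 bases, or 6.57% of the 624 genes with at least 2 matches. The spacing was looked at after the matches had been seen, and no expression value bears on it here.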
